A study of Mus musculus with 21 samples.

Results

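CD11chi macrophages were 1 of 3 macrophage populations that the study sorted from mouse kidneys, and the data described here are their 7 RNA-seq libraries out of 21 in all. They were chosen by their labels: 4 libraries came from kidneys with renal artery stenosis (RAS 1 to 4) and 3 from sham-operated kidneys (Sham 1 to 3). The mice were C57BL/6J males aged 24 weeks. RAS was made by a cuff around the right renal artery that stayed in place for about a month, and in Sham mice the artery was isolated without a cuff. Cells were freed from perfused kidneys with enzymes, cells with markers of T, B, NK or red cells or of granulocytes were excluded by gating, and F4/80+CD64+ cells high for both CD11b and CD11c were sorted, with 5 h given by the labels for the sort. The other populations were CD11clo macrophages, with 4 RAS and 3 Sham libraries, and kidney-resident macrophages (KRM), with 3 RAS and 4 Sham libraries. Nothing in the labels says that each library came from a separate mouse, so the p-values measure the spread between these libraries, which may be partly technical.

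In renal artery stenosis the kidney behind the narrowed artery receives less blood, and its chronic ischaemia is accompanied by inflammation, loss of small vessels and scarring. Macrophages take up dead cells, present antigen and release cytokines, and those derived from monocytes enter the injured kidney from the blood. CD11c, the integrin subunit encoded by Itgax, is carried by many monocyte-derived macrophages and also by conventional dendritic cells. Conventional dendritic cells that mature take on CCR7, co-stimulatory molecules and the chemokines CCL17 and CCL22. The comparison asked how the transcripts of this population differ between ischaemic and control kidneys.

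The sequences just before the RefSeq transcription starts of 4 genes on which the results turn are shown here: Ccl17 and Ccl22, neighbouring chemokine genes that were higher in RAS, Nr4a3, which had the smallest p-value together with Mmp13 once 2 libraries were left out, and Mmp13, which was lower. All lie on the plus strand of GRCm38.p6 (mm10) and read 5′ to 3′. Each window ends just before the first base of the gene in GENCODE vM21 or RefSeq, whichever comes first. Capitals mark matches, on either strand, to motifs searched by their letters.
Ccl17, chr8:94810203-94810452: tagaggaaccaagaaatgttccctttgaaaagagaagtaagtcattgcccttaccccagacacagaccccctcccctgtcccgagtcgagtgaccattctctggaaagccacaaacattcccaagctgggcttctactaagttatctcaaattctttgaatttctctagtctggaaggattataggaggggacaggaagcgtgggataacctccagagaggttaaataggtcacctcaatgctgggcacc
Ccl22, chr8:94745434-94745589: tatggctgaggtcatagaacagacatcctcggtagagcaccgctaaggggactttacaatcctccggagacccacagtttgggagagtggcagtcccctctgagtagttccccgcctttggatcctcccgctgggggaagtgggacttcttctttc
Nr4a3, chr4:48045055-48045152: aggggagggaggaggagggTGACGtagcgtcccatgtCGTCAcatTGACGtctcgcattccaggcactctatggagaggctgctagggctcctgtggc
Mmp13, chr9:7272264-7272513: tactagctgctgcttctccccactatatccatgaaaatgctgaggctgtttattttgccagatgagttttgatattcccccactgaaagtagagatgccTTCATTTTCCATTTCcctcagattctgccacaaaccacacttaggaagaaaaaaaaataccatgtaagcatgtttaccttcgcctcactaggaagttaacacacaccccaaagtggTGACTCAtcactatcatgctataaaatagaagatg

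The motif letters were AP-1 (TGACTCA), the kB core (GGNNNTTCC), the cAMP response element (TGACGTCA) and its core (TGACG), the E2F site (TTTCGCGC), CCAAT, the interferon response repeat (GAAANNGAA), PU.1 (GAGGAAGT) and the hypoxia response core (ACGTG). The core of the cAMP response element is part of the whole, and it was added after the first search. The Mmp13 window held an AP-1 match 35 bases before the RefSeq start, letters that 4.46% of 32851 mouse promoter windows of 250 bases hold. It also held 2 overlapping interferon response repeats on the minus strand at 151 and 145 bases, a motif present in 7.13% of the windows. The Nr4a3 window of 250 bases held 4 cores of the cAMP response element, at 231, 213, 205 and 147 bases before the start, of which the first 3 lie in the stretch shown. That core is present in 17.77% of promoter windows. A hypoxia response core, present in 16.57% of them, began at 145 bases and overlapped the last of these. The Ccl17 and Ccl22 windows held none of the letters searched, which says only that these letters were not in these windows. These matches describe the sequence and are neither binding sites nor causes.

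The 7 libraries held 6891149 to 10120515 counts each and between 15631 and 16752 genes with a count, so depth was alike across groups. A count of 0 in a library allows up to 3 counts, which is 0.2964 to 0.4353 counts scaled by library size (CPM), from counting error only. Sham 3 stood apart: 18.442% of its counts came from mitochondrial genes against 1.028% to 5.024% in the other 6 libraries, and its 24 proximal tubule genes summed to 67700 CPM against 1537 to 3194 CPM elsewhere. RAS 1 lay with the Sham libraries, and whether an error of label or sort touches RAS 1 or Sham 3 was not tested. On the log2 CPM scale the root mean square difference was 0.816 between RAS 1 and Sham 1 and 0.782 between RAS 1 and Sham 2, but 1.237, 1.085 and 1.119 between RAS 1 and RAS 2, 3 and 4. RAS 3 and RAS 4 were the most alike, with a difference of 0.558. Their counts differed by a chi-square of 4.949 per gene, above counting error, where the other pairs within a group gave 30.924 to 337.532, so they were kept as 2 libraries and also averaged as 1. Whether both came from 1 RNA was not tested, and the labels hold more RAS libraries of this population than the text of the study gives. Results are given with all 7 libraries and without RAS 1 and Sham 3. That choice was made with results on these data known, and leaving out the RAS library nearest to Sham widens the difference between the groups by construction.

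**Figure D1:**
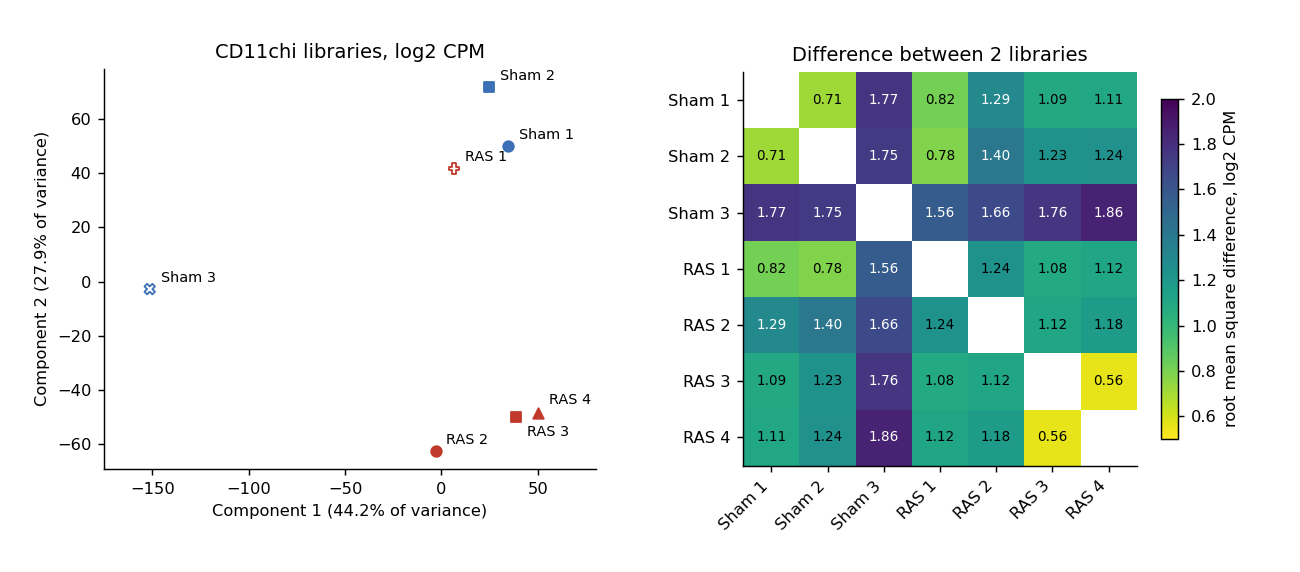
Left, the first 2 principal components of log2 CPM, with 44.16% and 27.88% of the variance, for the 3 Sham (blue) and 4 RAS (red) libraries. Right, the root mean square of the differences in log2 CPM for each pair of libraries. Sham 3 is alone on the left of component 1, RAS 1 lies with Sham 1 and Sham 2, and RAS 2 to 4 lie below.

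The sorted population carried macrophage genes and genes of conventional dendritic cells in every library. Itgax was at 367, 362 and 122 CPM in Sham 1 to 3 and at 352, 434, 849 and 852 CPM in RAS 1 to 4. Csf1r, the receptor for the main growth factor of macrophages, was at 2090, 2600 and 664 CPM in Sham and at 2280, 511, 892 and 839 CPM in RAS. Flt3, a growth factor receptor of dendritic cell development, was at 131, 131 and 43.5 CPM in Sham and at 91.9, 118, 166 and 179 CPM in RAS. Zbtb46, a transcription factor of conventional dendritic cells, was at 77.3, 52.1 and 19.2 CPM in Sham and at 71.2, 59, 116 and 155 CPM in RAS. With all 21 libraries scaled together, the median of Flt3 in Sham was 134 CPM here, 29.9 CPM in CD11clo macrophages and 37.3 CPM in KRM. The name CD11chi macrophages is kept from the labels. In these bulk libraries fewer cells of a type and less RNA per cell cannot be told apart.

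Over all genes, the RAS and Sham libraries did not lie apart beyond their spread when all 7 were used. The mean difference between libraries of different groups exceeded that within groups by 0.1489 log2 CPM (1.3181 against 1.1693), with an exact one-sided permutation p = 0.2286 over 35 assignments. Without RAS 1 and Sham 3 the excess was 0.3369, with an exact p = 0.1, the smallest that the 10 assignments allow.

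With all 7 libraries 0 of 12739 genes passed an adjusted p of 0.05 in edgeR's quasi-likelihood test (0.0%), while 1247 had an unadjusted p under 0.05 and DESeq2 called 188. By the criterion of the study, a fold change above 2 with an unadjusted p under 0.05, 503 genes were higher in RAS (3.95%) and 525 were lower (4.12%). Every RAS library lay above every Sham library in 467 genes (3.67%) and below in 434 (3.41%). Leaving out RAS 1 alone gave 39 adjusted calls, and leaving out any other single library gave 0. In the unadjusted calls the balance depended on Sham 3: without it 684 genes were higher and 163 lower. Without RAS 3 the counts were 332 and 135, and without RAS 4 they were 328 and 138.

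Without RAS 1 and Sham 3, edgeR called 441 of 12751 genes at an adjusted p under 0.05 (3.46%), of which 225 rose in RAS (1.76%) and 216 fell (1.69%). By the fold and unadjusted p, 1058 were higher (8.3%) and 882 lower (6.92%). Scaling by total library size, which moved the median of all genes to -0.20 on the log2 scale, turned the split of adjusted calls to 191 higher and 363 lower. These calls rested on few libraries. With either remaining Sham library left out, so that the other was assumed to vary like the RAS libraries, 0 genes passed. Leaving out RAS 3 gave 36 calls and leaving out RAS 4 gave 83, whereas leaving out RAS 2 gave 2817. With RAS 3 and RAS 4 averaged as 1 sample 75 genes passed. Of the 67 genes named here that passed, 26 also passed in that fit: Ccl17, Ccl22, Il4i1, Il12b, Il1a, Il1r2, Nr4a3, Fosl2, Il7r, Adam23, Clec4n, Col3a1, Timp1, Areg, Vegfa, Gpnmb, Mt2, Scd1, Tbc1d4, Cx3cr1, Mmp13, Alox15, F5, Hpgd, F13a1 and St3gal6.

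**Figure D2:**
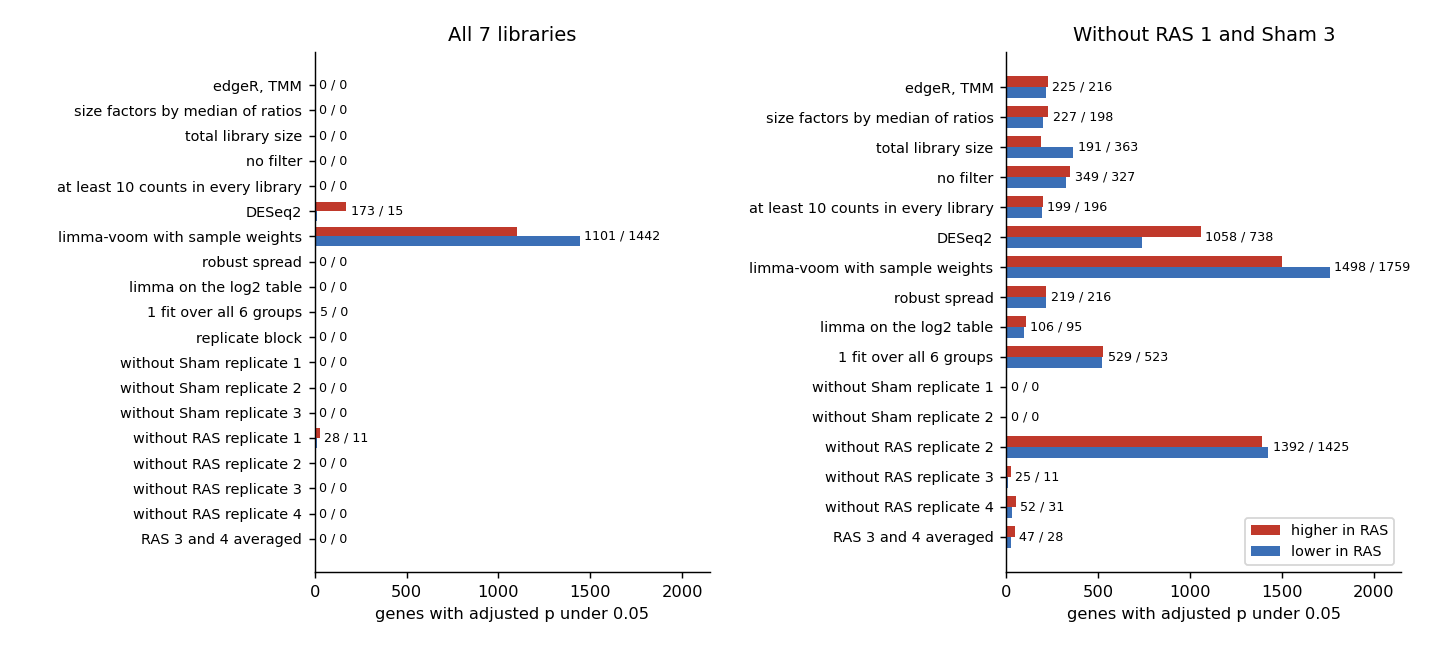
Number of genes with an adjusted p under 0.05, higher (red) and lower (blue) in RAS, for each tool, scaling, filter and left-out library, with all 7 libraries on the left and without RAS 1 and Sham 3 on the right. The numbers beside the bars give higher and lower counts, 0 and 0 for edgeR with all 7 libraries and 225 and 216 without the 2.

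The libraries left out took unlike places in the 2 sets of calls. Of the 225 genes that rose, 216 had the same direction with all 7 libraries and 177 had an unadjusted p under 0.05 there. In 78 of the 225 RAS 1 was at or below the higher of Sham 1 and Sham 2, and in 33 Sham 3 reached the level of RAS 2 to 4. All 216 genes that fell had the same direction with all 7 libraries, but 43 had an unadjusted p under 0.05. In 110 of the 216 RAS 1 was at or above the lower of Sham 1 and Sham 2, and in 50 Sham 3 reached the level of RAS 2 to 4. The median log2 fold change of the genes that rose was 2.52 without the 2 libraries and 2.00 with all 7, and that of the genes that fell was -2.10 and -1.09. Below, a gene is said to have risen or fallen only where it passed the adjusted p without the 2 libraries, since with all 7 the smallest adjusted p was 0.31. A log2 fold change given with 1 adjusted p is that without the 2 libraries unless stated.

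Genes of mature dendritic cells had the highest median log2 fold change of the 30 gene lists of biology in both fits. Of the 22 genes on that list, 14 were higher with all 7 libraries by fold and unadjusted p and 0 were lower, where over all genes 3.95% were higher and 4.12% lower. Their median log2 fold change was 1.47 against -0.09 over all genes tested. Without RAS 1 and Sham 3, 10 of 22 rose and 0 fell, where over all genes 1.76% rose and 1.69% fell, with a median of 1.61 against 0.00 over all genes. These shares over all genes are the background for the counts of every list below. Some lists of other cell types had higher medians. T and NK cell genes were at 2.951 with all 7 and 3.583 without the 2, and stromal genes at 1.813 and 2.958. Distal nephron, epithelial and endothelial genes were higher only without the 2, at 4.205, 2.531 and 2.185.

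Ccl17 (chr8:94810453-94812036), a chemokine that draws cells carrying CCR4, was at 20.5, 6.77 and 11.6 CPM in Sham 1 to 3 and at 36.7, 754, 535 and 564 CPM in RAS 1 to 4. All 4 RAS libraries lay above the Sham libraries, RAS 1 narrowly and the other 3 by far. The log2 fold change was 5.19 ± 1.03 (SE) with all 7 and 5.50 ± 0.58 without the 2 (adjusted p = 0.013). Ccl22 (chr8:94745590-94751699), which binds the same receptor, was at 46.7, 22.2 and 38.8 CPM in Sham and at 52.3, 252, 594 and 632 CPM in RAS. Its lowest RAS library again lay just above the Sham range, and the log2 fold change was 3.83 ± 0.57 without the 2 (adjusted p = 0.0266). Ccr7 (chr11:99144196-99155077), the receptor that guides mature dendritic cells to lymph nodes, was at 52.5, 12.9 and 25.8 CPM in Sham and at 40.6, 218, 371 and 398 CPM in RAS. Here RAS 1 lay within the Sham range, and the gene rose by 3.33 ± 0.65 on the log2 scale without the 2 (adjusted p = 0.0447).

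Il12b (chr11:44400063-44414033), the subunit shared by interleukins 12 and 23, was at 2.45, 2.97 and 8.42 CPM in Sham and at 9.87, 36.1, 62.8 and 58.8 CPM in RAS. Cd83, a surface protein of mature dendritic cells, was at 413, 543 and 462 CPM in Sham and at 438, 1780, 3280 and 3330 CPM in RAS. RAS 2 to 4 held both genes well above all Sham libraries, while RAS 1 was near Sham 3 for Il12b and inside the Sham range for Cd83. Without the 2 libraries the log2 fold changes were 4.27 ± 0.38 (adjusted p = 0.0112) and 2.54 ± 0.39 (adjusted p = 0.029). Il4i1, a secreted amino acid oxidase, was at 22.8, 15.4 and 11.8 CPM in Sham and at 31.1, 95.9, 96.1 and 96.4 CPM in RAS. It was above Sham in every RAS library and rose by 2.33 ± 0.26 on the log2 scale (adjusted p = 0.014).

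Cd40 and Cd80, which encode co-stimulatory molecules, and Relb, a subunit of the non-canonical NF-kB pathway, were picked after their values were seen. Cd40 was at 24.7 to 37 CPM in Sham and at 41.6, 87.5, 106 and 108 CPM in RAS, and it rose by 1.64 ± 0.25 on the log2 scale (adjusted p = 0.0274). Cd80 was at 6.71 to 12.7 CPM in Sham and at 12.5, 33.4, 82.2 and 90.7 CPM in RAS (log2 fold change 2.65 ± 0.48, adjusted p = 0.0402). Relb was at 38.3 to 60.9 CPM in Sham and at 59.7, 132, 126 and 120 CPM in RAS (1.25 ± 0.24, adjusted p = 0.0417). RAS 1 was above Sham for Cd40 alone of the 3. Kit, the receptor for stem cell factor, was at 10 to 19.6 CPM in Sham and at 40.9, 44.6, 121 and 141 CPM in RAS, apart from Sham in every library (3.26 ± 0.53, adjusted p = 0.0328). Irf4, a transcription factor of type 2 conventional dendritic cells, was at 13.2 to 35.9 CPM in Sham and at 42.5, 68.2, 134 and 140 CPM in RAS, also with no overlap (1.90 ± 0.38, adjusted p = 0.0491).

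Of the 20 genes of conventional dendritic cells, 7 were higher with all 7 libraries by fold and unadjusted p and 0 lower, and 3 rose without the 2, against 3.95% and 1.76% of all genes. Cd209a, a lectin of this lineage, was at 1410, 671 and 234 CPM in Sham and at 669, 1360, 3700 and 3940 CPM in RAS. The groups overlapped, since RAS 1 and RAS 2 were below Sham 1, and neither fit passed (adjusted p = 0.515 with all 7 and 0.165 without the 2). All 11 MHC class II genes had a positive log2 fold change with all 7 libraries and without the 2, with medians of 0.79 and 0.71, and 2 of 11 rose in the second. H2-Oa, which encodes a subunit of the modifier H2-O, rose by 1.64 ± 0.30 (adjusted p = 0.0408). Their summed level was 83780, 76570 and 40360 CPM in Sham and 66710, 97750, 136500 and 132800 CPM in RAS.

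**Figure D3:**
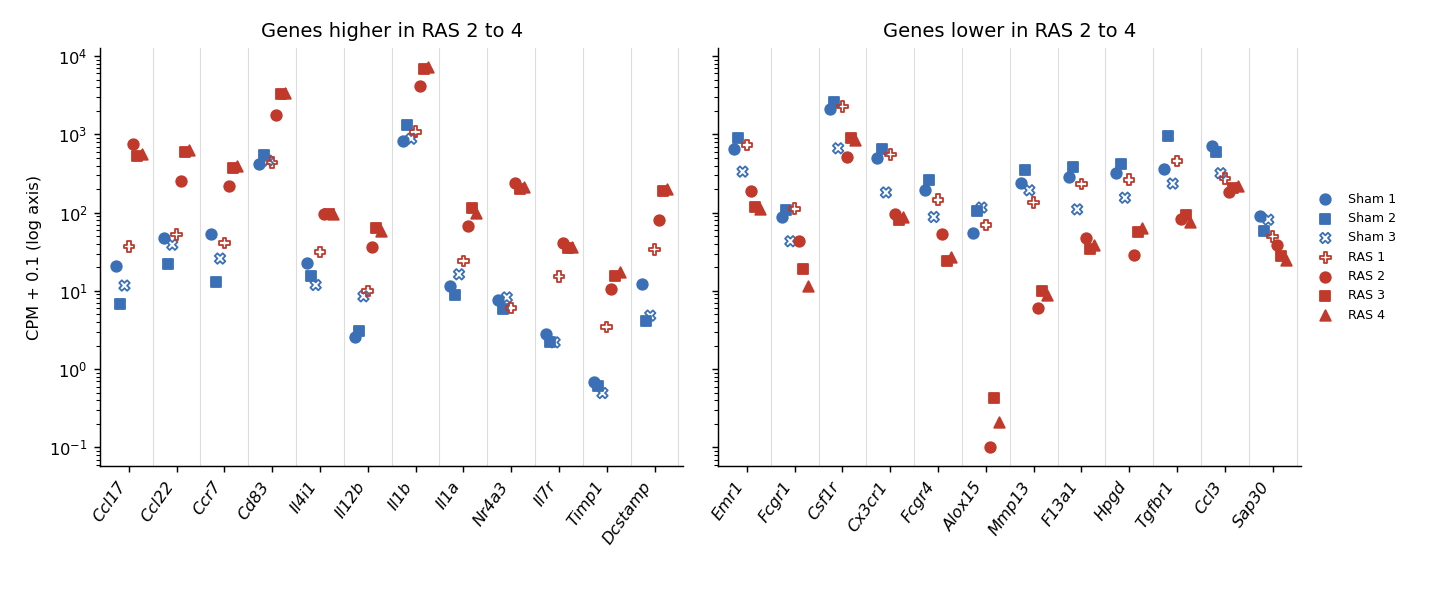
CPM + 0.1 on a log axis in each library for 12 genes higher (left) and 12 genes lower (right) in RAS 2 to 4, with Sham in blue and RAS in red; open symbols are Sham 3 and RAS 1. RAS 1 sits beside the Sham libraries for Nr4a3 and Cd83 and for most genes on the right, such as Emr1 at 735 CPM against 647 and 910 CPM in Sham 1 and 2, and above them for Il7r and Timp1.

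Cytokine and NF-kB genes were mixed, with more members that rose than fell. Of 38 genes on the NF-kB and LPS response list tested with all 7 libraries, 18 were higher by fold and unadjusted p and 2 lower, and of 39 tested without the 2, 8 rose and 1 fell, while over all genes 1.76% rose and 1.69% fell. Il1b (chr2:129364570-129371139), which encodes the fever cytokine interleukin 1 beta, was at 813, 1320 and 879 CPM in Sham and at 1080, 4160, 6890 and 7290 CPM in RAS. RAS 2 to 4 exceeded every Sham library and RAS 1 did not. The log2 fold change was 2.27 ± 0.68 with all 7 and 2.51 ± 0.41 without the 2 (adjusted p = 0.0328). Il1a was at 8.82 to 16.2 CPM in Sham and at 23.9, 68.2, 113 and 98.3 CPM in RAS, above Sham in all 4 (3.21 ± 0.32, adjusted p = 0.013). Il1r2, the decoy receptor for interleukin 1, was at 16.9 to 28 CPM in Sham and at 10, 214, 366 and 387 CPM in RAS, where RAS 1 was the lowest of all 7 (3.87 ± 0.41, adjusted p = 0.013).

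Il6 was at 8.3 to 10.6 CPM in Sham and at 7.6, 27.7, 38.3 and 41.7 CPM in RAS, so that RAS 1 was again lowest (1.92 ± 0.31, adjusted p = 0.0327). Icam1, an adhesion molecule, was at 84.4 to 136 CPM in Sham and at 156, 255, 363 and 379 CPM in RAS, with no overlap (1.35 ± 0.27, adjusted p = 0.0491). Cxcl9, a chemokine induced by interferon gamma, was at 18.8 to 28 CPM in Sham and at 39.8, 89, 102 and 101 CPM in RAS (2.06 ± 0.26, adjusted p = 0.0174), again with no overlap. The chemokine Ccl3 ran the other way, at 716, 594 and 319 CPM in Sham and at 273, 186, 209 and 216 CPM in RAS. All RAS libraries were below all Sham libraries and it fell by 1.69 on the log2 scale (SE 0.23, adjusted p = 0.02).

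Further inflammatory genes that the study named passed in neither fit. Ccl2 was at 305, 98.1 and 127 CPM in Sham and at 98.8, 373, 191 and 183 CPM in RAS, and Tnf was at 316, 68.9 and 76.5 CPM and at 48.1, 137, 98.3 and 112 CPM. Sham 1 held the highest Tnf level and the second highest Ccl2 level of the 7. The log2 fold changes with all 7 were 0.26 ± 0.54 (adjusted p = 0.879) and -0.64 ± 0.59 (adjusted p = 0.702). Nfkb1 was at 194, 153 and 66.6 CPM in Sham and at 151, 204, 204 and 214 CPM in RAS (0.48 ± 0.38 with all 7, adjusted p = 0.65; 0.25 ± 0.22 without the 2, adjusted p = 0.542). The chemokine Ccl7 was at 70.8, 30.8 and 68.9 CPM in Sham and at 43.5, 195, 82.2 and 91.7 CPM in RAS (1.27 ± 0.51 without the 2, adjusted p = 0.197), and Ccl8 at 4.41, 2.36 and 46.2 CPM and at 42.8, 57.2, 8.9 and 4.72 CPM (2.78 ± 1.12, adjusted p = 0.196). RAS 2 to 4 lay above Sham 1 and 2 for Nfkb1, Ccl7 and Ccl8, narrowly for Nfkb1 and Ccl8, whereas the groups overlapped for all 5 genes with all 7 libraries. Of the 34 interferon-stimulated genes 1 was higher and 0 lower with all 7 by fold and unadjusted p, and 0 rose and 2 fell without the 2. By fold and unadjusted p without the 2, 1 was higher and 10 lower, against 8.3% and 6.92% of all genes. The median log2 fold change was -0.06 with all 7 and -0.44 without the 2.

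Among transcription factors of the early response, RAS 2 to 4 and the other libraries differed most for Nr4a3 (chr4:48045153-48086447), an orphan nuclear receptor, whose upstream sequence is printed above. It was at 7.65, 5.84 and 8.15 CPM in Sham and at 5.97, 237, 201 and 213 CPM in RAS. RAS 1 lay inside the Sham range, and the log2 fold change was 4.51 ± 1.08 with all 7 and 5.00 ± 0.29 without the 2 (adjusted p = 0.00622). Fosl2, an AP-1 subunit, was at 35.8 to 50 CPM in Sham and at 53.9, 265, 310 and 314 CPM in RAS, just above Sham in RAS 1 (2.58 ± 0.24, adjusted p = 0.0123). Jun, another AP-1 subunit, was at 5280, 2780 and 1630 CPM in Sham and at 2050, 758, 816 and 827 CPM in RAS, and fell by 2.34 (SE 0.33, adjusted p = 0.022). The early response list as a whole, which also marks handling of the tissue, had 6 genes that rose and 2 that fell of 27 without the 2, and its median changed sign with the scaling, from 0.07 to -0.10 with total library size. Hspa1b, an inducible heat shock protein, was at 6920, 5630 and 3860 CPM in Sham and at 3890, 709, 1600 and 1660 CPM in RAS, and fell by 2.25 (SE 0.41, adjusted p = 0.0402).

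Another set of genes was higher in all 4 RAS libraries, RAS 1 included. The naming rule took them only where the groups did not overlap with all 7 libraries, so their separation is not a result. Over all genes 3.67% were apart in this direction. Il7r (chr15:9505788-9530176), which encodes the interleukin 7 receptor, had the smallest p-value with all 7 libraries. It was at 2.74, 2.15 and 2.1 CPM in Sham and at 15.1, 40.7, 35 and 36.5 CPM in RAS. The log2 fold change was 3.76 ± 0.44 with all 7 (adjusted p = 0.31) and 3.92 ± 0.31 without the 2 (adjusted p = 0.00762). Hvcn1, the voltage-gated proton channel of phagocytes, was at 22.4 to 32.1 CPM in Sham and at 67.3, 72.3, 87.8 and 81.3 CPM in RAS. Its groups were well apart and its spread small, with 1.46 ± 0.24 with all 7 (adjusted p = 0.448) and 1.37 ± 0.22 without the 2 (adjusted p = 0.0304). Gpc1, a heparan sulfate proteoglycan, was at 4.6 to 10.7 CPM in Sham and at 25.6, 32.5, 35.3 and 38.1 CPM in RAS (2.12 ± 0.36 without the 2, adjusted p = 0.0354). Serpina3g, a protease inhibitor, was at 12.9 to 27.1 CPM in Sham and at 60.1, 70.8, 67.5 and 77.5 CPM in RAS (1.85 ± 0.34, adjusted p = 0.0408). In these last 3 genes RAS 1 was at nearly the level of the other RAS libraries.

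Clec4n, the fungal receptor dectin-2, was at 14.5 to 30.6 CPM in Sham and at 43, 152, 133 and 128 CPM in RAS (2.48 ± 0.30, adjusted p = 0.0155). Dcstamp, needed for fusion of macrophage lineage cells, was at 4 to 12.3 CPM in Sham and at 33.7, 79.3, 188 and 200 CPM in RAS (4.25 ± 0.65, adjusted p = 0.029). Adam23, a member of the ADAM family without protease activity, was at 3.68 to 8 CPM in Sham and at 19.4, 53.3, 78.3 and 88.3 CPM in RAS (3.31 ± 0.32, adjusted p = 0.013). In all 3, RAS 1 stood between the Sham libraries and the other RAS libraries. Nrp2, a receptor for semaphorins and VEGF-C, was at 6.44 to 11.6 CPM in Sham and at 21.4 to 46.4 CPM in RAS (1.91 ± 0.29, adjusted p = 0.029).

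Timp1 (chrX:20870166-20874735), an inhibitor of matrix metalloproteinases, was at 0.588, 0.513 and 0.395 CPM in Sham and at 3.35, 10.5, 15.4 and 17.5 CPM in RAS. Its log2 fold change was 4.51 ± 0.70 with all 7 (adjusted p = 0.442) and 4.68 ± 0.48 without the 2 (adjusted p = 0.013). Col3a1, a collagen of connective tissue, was at 5.19 to 6.56 CPM in Sham and at 12.9, 53.7, 28.3 and 48.5 CPM in RAS (2.88 ± 0.38, adjusted p = 0.0194). The stromal marker list, which includes Col3a1, moved with these genes: 8 of 18 members were higher and 1 lower with all 7 by fold and unadjusted p, and 7 rose without the 2. Its summed level was 487.6 to 670 CPM in Sham, 502.3 CPM in RAS 1 and 1098 to 1366 CPM in RAS 2 to 4, but most of it was Gsn, an actin-binding protein of many cells, at 251 to 618 CPM in Sham and at 444, 613, 1110 and 1150 CPM in RAS (adjusted p = 0.219). Without Gsn the sum was 52.05, 65.09 and 236.4 CPM in Sham and 58.74, 484.6, 171.7 and 213.1 CPM in RAS, so that Sham 3 exceeded RAS 3 and RAS 4. Col1a1 was at 1.45 to 2.36 CPM in Sham and at 3.17, 25, 12.7 and 16.6 CPM in RAS, above Sham in all 4. The part of stromal RNA in the collagen and Timp1 values was not tested.

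T and NK cell genes also differed, although such cells were gated out. Of 21 members tested with all 7 libraries 15 were higher by fold and unadjusted p, and 10 of 20 rose without the 2, against 3.95% and 1.76% of all genes. Their summed level was 35.87, 14.97 and 68.13 CPM in Sham and 546.4, 299.5, 178.3 and 200.5 CPM in RAS. Cd3e, the T cell receptor subunit, was at 0.103 to 4.73 CPM in Sham and at 27.5, 9.03, 12.2 and 12.5 CPM in RAS, and Cd5 was at 0.392 to 1.18 CPM and at 10.4, 11.7, 8.03 and 6.85 CPM. Tbx21, a transcription factor of type 1 lymphocytes, was at 0.308 to 1.96 CPM in Sham and at 20.1, 5.42, 18.4 and 23.5 CPM in RAS (adjusted p = 0.0773 without the 2). Il7r is itself on this list, Ccr7 and Kit are also expressed by lymphoid cells, and RAS 1, with the highest T and NK sum, had the lowest Il7r, Ccr7 and Kit of the RAS libraries. The part of lymphoid RNA in the values of these genes was not tested. Neutrophil genes summed to 206.4, 260.4 and 73.79 CPM in Sham and to 404.7, 170.3, 24.19 and 15.95 CPM in RAS. RAS 1 held the highest sum and RAS 3 and 4 the lowest, with S100a8 at 4.21 to 20.8 CPM in Sham and at 43.6, 37.3, 2.93 and 1.46 CPM in RAS and Ly6g at 0 counts in all 7.

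Of the genes that encode the markers of the sort, Emr1 fell, while Fcgr1, Itgax and Itgam did not pass. Of 19 genes of the sort and of macrophage identity, 0 were higher and 0 lower with all 7 libraries by fold and unadjusted p (median -0.66), and 0 rose and 4 fell without the 2 (median -1.13). Emr1 (chr17:57358691-57483527, the older symbol of Adgre1), which encodes F4/80, was at 647, 910 and 334 CPM in Sham and at 735, 187, 117 and 110 CPM in RAS. RAS 1 lay inside the Sham range and RAS 2 to 4 lay below it. The log2 fold change was -1.13 ± 0.72 with all 7 (adjusted p = 0.595) and -2.50 ± 0.32 without the 2 (adjusted p = 0.018). Fcgr1, which encodes CD64, was at 88.2, 108 and 43 CPM in Sham and at 112, 43.2, 18.8 and 11.5 CPM in RAS (adjusted p = 0.706 with all 7 and 0.081 without the 2). Sham 3 and RAS 2 held it at nearly the same level.

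Cx3cr1, the fractalkine receptor, was at 495, 653 and 181 CPM in Sham and at 553, 96.7, 79.4 and 87.7 CPM in RAS (-2.71 ± 0.25 without the 2, adjusted p = 0.0114; adjusted p = 0.621 with all 7). Csf1r, given above, fell by 1.65 (SE 0.32, adjusted p = 0.044). Fcgr4, which encodes an Fc receptor of macrophages and monocytes, fell by 2.71 (SE 0.39, adjusted p = 0.023). Sham 3 was the lowest Sham library for Emr1, Fcgr1, Csf1r, Cx3cr1 and Fcgr4.

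Itgax, the other sort marker, did not pass with all 7 (1.13 ± 0.52, adjusted p = 0.512) or without the 2 (0.96 ± 0.35, adjusted p = 0.168), and Itgam, for CD11b, was at 620, 770 and 132 CPM in Sham and at 578, 234, 688 and 754 CPM in RAS. Cd68, a lysosomal protein of macrophages, was at 284 to 701 CPM in Sham and at 632 to 695 CPM in RAS. With all 7 by fold and unadjusted p, 1 of 18 genes of classical monocytes was higher and 0 lower. Of 18 genes of nonclassical monocytes 2 were higher and 1 lower there, against 3.95% and 4.12% of all genes. Without the 2 libraries, 0 of 18 genes of classical monocytes rose and 5 fell, and 1 of 18 genes of nonclassical monocytes rose and 5 fell, against 1.76% and 1.69% of all genes. The one that rose was Dusp5, a phosphatase of MAP kinases (1.97 ± 0.38, adjusted p = 0.044). The log2 fold changes of S100a4 (1.18 ± 0.44, adjusted p = 0.172) and S100a6 (1.09 ± 0.36, adjusted p = 0.138) on the first list and of Ear2 (1.79 ± 0.41, adjusted p = 0.0694) on the second were also positive. Vcan, a proteoglycan of classical monocytes, was at 5.1, 24.9 and 0 CPM in Sham and at 4.16, 1.66, 1.41 and 1.24 CPM in RAS (adjusted p = 0.0499).

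Among further genes that fell, those in this paragraph and the next were picked after their values were seen, except Alox15. Mmp13 (chr9:7272514-7283331), a collagenase whose upstream sequence is printed above, was at 239, 347 and 193 CPM in Sham and at 135, 5.87, 9.76 and 8.65 CPM in RAS. All RAS libraries were below all Sham libraries, with RAS 1 much nearer to Sham, and the log2 fold change was -2.70 ± 1.09 with all 7 and -5.17 ± 0.32 without the 2 (adjusted p = 0.00622). Alox15 (chr11:70344152-70352031), a lipoxygenase that makes lipid mediators of resolution, was at 55.5, 105 and 116 CPM in Sham and at 69.1, 0, 0.325 and 0.112 CPM in RAS. It was at or near 0 in RAS 2 to 4 and within the Sham range in RAS 1 (adjusted p = 0.64 with all 7 and 0.00762 without the 2). Prg4, a lubricating proteoglycan, was at 23.5, 63.7 and 61.8 CPM in Sham and at 10.5, 1.96, 0 and 0 CPM in RAS, below Sham throughout (adjusted p = 0.0456 without the 2).

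F5 and F13a1 encode clotting factors V and XIII. F5 was at 22.4 to 35.8 CPM in Sham and at 27.6, 1.36, 0.976 and 0.786 CPM in RAS (-4.81 ± 0.41 without the 2, adjusted p = 0.0102), and F13a1 was at 285, 385 and 110 CPM in Sham and at 231, 47.9, 33.8 and 38.2 CPM in RAS (-3.07 ± 0.27, adjusted p = 0.0111). RAS 1 was within the Sham range for both. Hpgd, which inactivates prostaglandins, was at 323, 420 and 155 CPM in Sham and at 263, 28.6, 56 and 64.1 CPM in RAS (-2.91 ± 0.37, adjusted p = 0.0174). Tlr7, the endosomal sensor of single-stranded RNA, was at 65, 107 and 22 CPM in Sham and at 83.8, 16.6, 6.4 and 3.37 CPM in RAS (-3.32 ± 0.61, adjusted p = 0.0402). Lyve1, a hyaluronan receptor of perivascular and serosal macrophages, was at 15.2, 44.8 and 12.2 CPM in Sham and at 16.9, 1.96, 0.325 and 0 CPM in RAS (adjusted p = 0.0464). Cavity macrophage genes, a list that held several of these, had 0 that rose and 4 that fell of 19 without the 2, with medians of -1.20 with all 7 and -1.18 without. By fold and unadjusted p 4 were higher and 2 lower with all 7, and 4 higher and 8 lower without the 2. The list summed to 587.5 to 748 CPM in Sham, 518 CPM in RAS 1 and 1019 to 1904 CPM in RAS 2 to 4, where Bhlhe40, a transcription factor, held 762 to 1760 CPM (2.43 ± 0.51, adjusted p = 0.0536).

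Receptors of the TGF-beta pathway included Tgfbr1, at 359, 940 and 235 CPM in Sham and at 458, 83.4, 93.8 and 75.2 CPM in RAS (-2.95 ± 0.41 without the 2, adjusted p = 0.021). Tgfbi, a matrix protein induced by TGF-beta, fell by 1.58 (SE 0.31, adjusted p = 0.0446). Over the 24 genes of that pathway 1 rose and 2 fell without the 2, and of 25 Toll-like receptor and inflammasome genes 1 rose and 4 fell. With all 7 by fold and unadjusted p, 3 genes of the pathway were higher and 2 lower. Of the Toll-like receptor and inflammasome genes 2 were higher and 0 lower there, against 3.95% and 4.12% of all genes. Over all genes 1.76% rose and 1.69% fell without the 2, and whether such small counts differ from this background was not tested.

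A different picture held for the 12 genes that the naming rule gave as lower in RAS with all 7 libraries: Acbd4, Acsl1, Amn1, Apob, Ccl3, Col4a2, Cyr61, Ifnb1, Matn2, Qprt, Sap30 and Serpinb2. Of these Ccl3 and Matn2 fell without the 2 libraries. Matn2, a matrix protein, was at 20.2, 44.6 and 15.5 CPM in Sham and at 10.5, 3.16, 5.64 and 4.94 CPM in RAS (-2.81 ± 0.44, adjusted p = 0.0294). In 7 of the others, Acbd4, Acsl1, Amn1, Apob, Col4a2, Cyr61 and Qprt, Sham 3 was the highest library. Apob, a lipoprotein made by liver and gut, was at 4.02, 4.72 and 216 CPM in Sham and at 3.08, 0.301, 1.3 and 0.112 CPM in RAS, and Qprt, an enzyme of NAD synthesis, at 8.14, 8.1 and 48.1 CPM and at 5.61, 3.76, 3.04 and 1.68 CPM. Acbd4 was at 79.4 CPM, Col4a2 at 45.8 CPM and Cyr61 at 182 CPM in Sham 3, against 9.31 and 11 CPM, 13.7 and 19.6 CPM, and 34.4 and 91.5 CPM in Sham 1 and 2. Adjusted p-values of these 7 genes without the 2 libraries ran from 0.113 to 0.257. Proximal tubule genes moved with them, since 15 of 24 were lower with all 7 by fold and unadjusted p and 0 of 24 fell without the 2; Slc34a1, the phosphate transporter of that segment, was at 5420 CPM in Sham 3 and at 44.1 to 216 CPM elsewhere. The part of tubular RNA in these 7 results was not tested.

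Ifnb1, which encodes interferon beta, was at 60.7 CPM in Sham 1 and at 1.54 and 2.5 CPM in Sham 2 and 3, against 0.108 to 0.905 CPM in RAS. Its log2 fold change was -5.72 ± 1.42 with all 7 (adjusted p = 0.508) and -7.16 ± 1.51 without the 2 (adjusted p = 0.0555), and it rested mainly on 1 library. Serpinb2, an inhibitor of plasminogen activators, was at 6.47, 50.8 and 38.4 CPM in Sham and at 6.06, 2.86, 2.17 and 1.12 CPM in RAS (-3.82 ± 0.84, adjusted p = 0.0611). Sap30, a subunit of a histone deacetylase complex, was at 58.8 to 91.8 CPM in Sham and at 24.4 to 49.5 CPM in RAS (-1.32 ± 0.30, adjusted p = 0.0637).

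Genes of tissue repair, metabolism and growth gave a mixed picture. Vegfa, the main growth factor of vessels, was at 9.21, 7.07 and 103 CPM in Sham and at 13.8, 44.4, 110 and 108 CPM in RAS. Sham 3 matched RAS 3 and RAS 4, so the groups overlapped with all 7 (0.80 ± 1.04, adjusted p = 0.791) and were apart without the 2 (3.42 ± 0.48, adjusted p = 0.0211). Areg, a ligand of the EGF receptor, was at 1.03 to 5.39 CPM in Sham and at 2.44, 25.4, 40.7 and 34.5 CPM in RAS (4.38 ± 0.46, adjusted p = 0.013). Over the 34 genes of angiogenesis and repair 8 were higher and 3 lower with all 7 by fold and unadjusted p, and 5 rose and 4 fell without the 2, against 3.95% and 4.12%, and 1.76% and 1.69%, of all genes. By fold and unadjusted p without the 2, 10 of 17 endothelial, 8 of 11 epithelial and 11 of 19 distal nephron genes were higher, against 8.3% of all genes. The part of RNA from such cells in the values of this paragraph was not tested. Spp1, which encodes osteopontin, was at 58.5, 47.3 and 1130 CPM in Sham and at 302, 1340, 354 and 188 CPM in RAS, with the 2 highest levels in different groups (0.41 ± 1.17 with all 7, adjusted p = 0.917; 3.57 ± 0.88 without the 2, adjusted p = 0.0781).

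Gpnmb (chr6:49036546-49070929), a glycoprotein of lipid-laden phagocytes, was at 3.72, 1.54 and 9.08 CPM in Sham and at 25.4, 710, 127 and 110 CPM in RAS. Every RAS library exceeded Sham, and RAS 2 exceeded the rest by far (6.89 ± 1.18 without the 2, adjusted p = 0.0361). Mt2, a metallothionein, was at 7.94, 9.33 and 22.5 CPM in Sham and at 12.3, 91.1, 131 and 126 CPM in RAS (3.74 ± 0.29, adjusted p = 0.00762). Slc7a11, a cystine transporter, was at 3.28 to 5.39 CPM in Sham and at 5.88, 38.1, 23.8 and 18.3 CPM in RAS (2.61 ± 0.45, adjusted p = 0.0372), and Scd1, a fatty acid desaturase, at 0.718 to 9.6 CPM and at 3.17, 19.3, 21.3 and 18.2 CPM (4.42 ± 0.39, adjusted p = 0.0112). RAS 1 lay inside the Sham range for Mt2 and Scd1.

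All 25 genes of mitosis had a positive log2 fold change. With all 7 libraries 16 of them had a fold above 2 and an unadjusted p under 0.05, as 3.95% of all genes did, and without the 2 libraries 3 rose, Mki67, Birc5 and Ube2c, against 1.76% of all genes. Mki67 was at 46.7, 40.2 and 41.6 CPM in Sham and at 40.9, 127, 103 and 102 CPM in RAS (1.34 ± 0.23, adjusted p = 0.0361), with RAS 1 at the Sham level. Birc5, an inhibitor of apoptosis made in mitosis, was at 9.34 to 17.9 CPM in Sham and at 21.1, 48.6, 43.3 and 41 CPM in RAS (1.47 ± 0.25, adjusted p = 0.0361). Ube2c, an enzyme that marks cyclins for destruction, was at 7.59 to 13.9 CPM in Sham and at 17.3 to 52.3 CPM in RAS (2.06 ± 0.37, adjusted p = 0.0402). All 78 ribosomal protein genes tested had a positive log2 fold change in both fits, with medians of 0.81 and 1.04, while 2 and 51 of the 78 were higher by fold and unadjusted p, against 3.95% and 8.3% of all genes, and 1 rose, so that the 2 and the 1 were not above the background. Their summed level was 14250, 12640 and 14120 CPM in Sham and 11450, 37620, 24240 and 22760 CPM in RAS, so RAS 1 was lowest and RAS 2 highest. Nuclear genes of the respiratory chain changed sign with the 2 libraries, with a median of -0.36 with all 7 and 0.72 without, and Sham 3 had the highest sum at 27840 CPM.

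**Figure D4:**
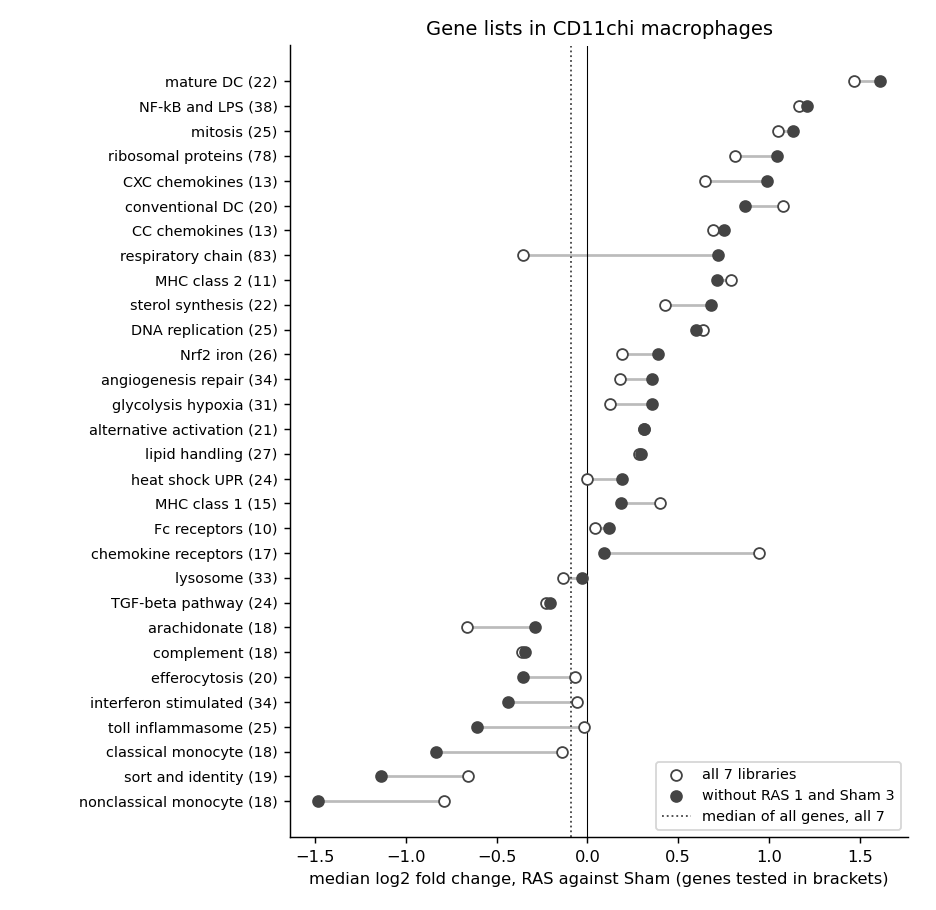
Median log2 fold change, RAS against Sham, of each of 30 gene lists of biology in CD11chi macrophages, with all 7 libraries (open) and without RAS 1 and Sham 3 (filled). The number of genes tested is in brackets and the dotted line is the median of all genes with all 7 (-0.09). Mature dendritic cell genes are at the top, at 1.47 and 1.61, and nonclassical monocyte genes at the bottom, at -0.79 and -1.48.

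The response was set beside that of the other populations. The fits treated their libraries as independent, although 11 of 13 same-numbered pairs between populations had deviations that correlated above 0.1. With all 7 CD11chi libraries the test of the difference in response called 0 of 13540 genes against CD11clo macrophages and 0 of 14137 against KRM, where 900 and 2998 had an unadjusted p under 0.05 and DESeq2 called 15 and 1221. Without RAS 1 and Sham 3 it called 94 of 13772 genes against CD11clo macrophages (0.683%) and 113 of 14678 against KRM (0.77%). Leaving out RAS 1 alone gave 58 calls against KRM. The deposited counts and log2 table were also compared, on the log2 scale and with each gene's mean over the libraries taken off. KRM RAS 1, 1 of 3 KRM RAS libraries, then correlated across genes by only 0.09 with its own column, against 0.915 to 0.966 for the other 20 libraries. Without KRM RAS 1 as well, 1054 genes were called against KRM, and all 113 above were among them with the same sign. With only KRM RAS 1 left out, and RAS 1 and Sham 3 kept, 1097 were called.

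Tbc1d4 (chr14:101442360-101609191), which regulates the trafficking of glucose transporters, was at 17.6, 14.1 and 15.8 CPM in Sham and at 30.6, 148, 336 and 368 CPM in RAS. Its response exceeded that of CD11clo macrophages by 3.88 on the log2 scale (adjusted p = 0.0303) and that of KRM by 3.01 (adjusted p = 0.0174), the responses there being 0.34 and 1.20. St3gal6, a sialyltransferase, was at 77.7, 155 and 93.9 CPM in Sham and at 84.5, 12.9, 16.6 and 12.8 CPM in RAS. Its response was lower by 5.75 than in CD11clo macrophages (adjusted p = 0.041) and by 2.17 than in KRM (adjusted p = 0.0215). The responses of Emr1 and Cx3cr1 were below those of both other populations, by 3.00 (adjusted p = 0.041) and 3.61 (adjusted p = 0.0198) against CD11clo macrophages and by 2.15 (adjusted p = 0.0215) and 1.96 (adjusted p = 0.0449) against KRM. With the replicate number as a block in the same test, Tbc1d4, St3gal6, Emr1 and Cx3cr1 passed against neither population (adjusted p = 0.0534 to 0.0923).

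Hpgd, Tgfbr1, Tlr7 and the transcriptional corepressor Tle1 passed in the test against CD11clo macrophages, with differences of -3.67, -4.07, -3.57 and -2.43, and Anxa4, an annexin, with 1.40. With the replicate number as a block, only Hpgd of these genes passed there (adjusted p = 0.0425). Against KRM the response was higher for Adam23 (3.71, adjusted p = 0.0089), Il1r2 (4.00), Flt3 (2.80), Mmp12 (2.58) and Irf4 (2.46) and lower for F13a1 (-3.49, adjusted p = 0.000323), Mmp13 (-4.30, adjusted p = 0.000323) and Scnn1a (-7.96), a sodium channel subunit of the collecting duct. Scnn1a fell by 2.46 on the log2 scale here (SE 0.49, adjusted p = 0.0488) and had a log2 fold change of 5.54 in KRM. Distal nephron genes moved with it there, summing to 21.24 to 257.8 CPM in KRM Sham libraries and to 150.9, 6288 and 4797 CPM in KRM RAS 1 to 3, and their part in this difference was not tested. Mmp12, an elastase of macrophages, was at 427 to 673 CPM in Sham and at 492, 1120, 1400 and 1320 CPM in RAS here, while its log2 fold change in KRM was -1.37. Flt3 had log2 fold changes of 0.23 here without the 2 libraries and -2.52 in KRM. For Mmp13 the difference from CD11clo macrophages missed the threshold (adjusted p = 0.0502), with a log2 fold change there of 3.19.

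Several of the highest genes gave no such call. Il7r had a log2 fold change of 2.76 in CD11clo macrophages and 3.46 in KRM, Ccl22 of 0.96 and 2.67, and Il1b of 2.40 and 1.30. Their adjusted p-values for the difference ran from 0.263 to 0.94 with Ccl17 included, which does not show that the responses were alike. The 225 genes that rose here had a median log2 fold change of 0.93 in CD11clo macrophages and 2.11 in KRM, with 204 and 203 of them tested there, and the 216 that fell had medians of 0.18 and -0.73. Without KRM RAS 1 the medians in KRM were 2.37 and -1.11, over 215 and 212 genes tested.

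**Figure D5:**
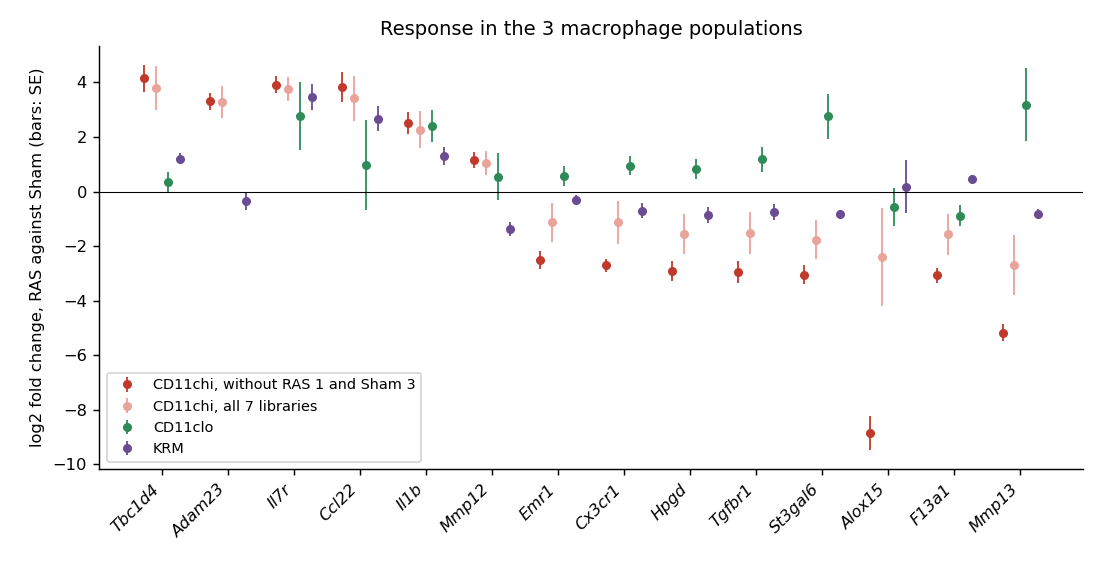
Log2 fold change, RAS against Sham, with its SE for 14 genes in CD11chi macrophages without RAS 1 and Sham 3 (red) and with all 7 libraries (pink), in CD11clo macrophages (green) and in KRM (purple); a missing point was not tested there. Il7r and Il1b are positive in all 3 populations, whereas Emr1 is at -2.50 in CD11chi macrophages without the 2 libraries, 0.56 in CD11clo macrophages and -0.31 in KRM.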

How the data were processed

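RNA from CD11chi macrophages was sequenced after SMART-Seq v4 amplification and Nextera XT library preparation. The authors deposited estimated counts per gene from paired-end reads that they aligned to mm10 with OSA and assigned to Ensembl genes, and the labels name DESeq2. The authors also deposited a table of TPM on the log2 scale after quantile normalization, used here as an alternative. Strand was not given in the sources used here, so antisense and overlapping genes are not told apart, nor are near-identical copies.

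Samples were grouped by their labels, and every column used matched the name of 1 sample. KRM RAS 1, whose columns disagreed between the 2 deposited tables, was also left out. The 3730 lines that share a name among 37620 were summed, which left 34236 names, and the sums were rounded to whole counts. The 7 libraries held 6891149 to 10120515 counts, so counting error is small for the genes named, and intervals or floors of 3 counts cover counting error only. Positions are from GENCODE vM21 and upstream sequences from RefSeq, both on GRCm38.

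RAS was compared with Sham in edgeR 4.0.16 (R 4.3.3) with TMM factors, filterByExpr (minimum count 10, minimum total 15), a two-sided quasi-likelihood F test and Benjamini-Hochberg adjustment over all genes tested, in a fit of the 7 libraries and in one of 5. Differences in response were tested as an interaction over 4 groups. Each SE was derived from the test, as the size of the log2 fold change over the square root of the F statistic. CPM used the TMM factors and log2 CPM a prior count of 2. The distance between groups was tested by exact permutation. Alternatives were other scalings, filters, a robust spread, DESeq2 1.42.0, limma 3.58.1 (with voom weights, and on the log2 table), 1 fit over 6 groups, the replicate number as a block and each library left out; those for the 5 libraries, RAS 3 and RAS 4 averaged, and KRM RAS 1 left out, were chosen after seeing the data. The fits were tested on simulated data.

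Genes were named by rule: 12 in each direction with adjusted p under 0.05, the groups apart and a mean log2 CPM of 3 or more, filled up by the smallest unadjusted p where too few passed; the 2 most abundant members and the 2 with the smallest p of each biology list; the genes the study names; up to 4 of the most abundant members of each list of another cell type; and the 5 with the smallest p in each direction of each interaction. The genes outside it, chosen after their values were seen, are Ccl22, Ccr7, Cd40, Cd80, Relb, Icam1, Il1r2, Areg, Nr4a3, Fosl2, Jun, Emr1, Fcgr1, Csf1r, Cx3cr1, Itgam, Cd68, Zbtb46, Mmp13, F5, Prg4, Lyve1, Vcan, Tlr7, Hpgd, F13a1, Scd1, Tgfbr1, Cd3e, Cd5, Ly6g, S100a8 and Col1a1. The 48 gene lists (30 of biology, 15 of other cell types, 3 of quality) were written from general knowledge, and 915 of their 924 entries by symbol were found, 12 under older symbols. The population, the lists and the 2 libraries left out were chosen with earlier results of these data known. Columns of the study's own comparisons were not used, and some genes are not reported here.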

Additional observations from a re-analysis of the deposited data

Results flagged for a closer look

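In the RAS group of 4 libraries, 23 of 116 values tested had 1 library far from the other 3 by Dixon's criterion at 95%, where chance gives about 1 in 20. Many of these genes were named for passing a fit without RAS 1, which favours values at which RAS 1 stands apart, so the excess over chance shows nothing by itself. In 20 of the 23 the library was RAS 1. It was far below RAS 2 to 4 for Il4i1 (31.1 CPM), Nr4a3 (5.97 CPM), Relb (59.7 CPM), Scd1 (3.17 CPM) and Nfkb1 (151 CPM). It was far above them for Jun (2050 CPM), Emr1 (735 CPM), Cx3cr1 (553 CPM), Mmp13 (135 CPM), Alox15 (69.1 CPM), F5 (27.6 CPM), Tlr7 (83.8 CPM), Hpgd (263 CPM), F13a1 (231 CPM), Tgfbr1 (458 CPM), St3gal6 (84.5 CPM), Lyve1 (16.9 CPM) and Vcan (4.16 CPM). RAS 1 also had the lowest share of counts in its 10 most abundant genes (12.122%) and the highest sum of eosinophil, basophil and mast cell genes (83.63 CPM). RAS 2 stood apart for Gpnmb (710 CPM) and Spp1 (1340 CPM), and RAS 4 for Col4a2 (13.1 CPM).

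Responses differed between populations by the interaction test without RAS 1 and Sham 3, at an adjusted p under 0.05 in edgeR, over 94 genes against CD11clo macrophages and 113 against KRM. Against CD11clo macrophages the differences in log2 response of named genes were -3.001 for Emr1, -3.609 for Cx3cr1, -8.216 for Alox15, -3.571 for Tlr7, -3.67 for Hpgd, -4.072 for Tgfbr1, -5.75 for St3gal6, -2.43 for Tle1, 3.875 for Tbc1d4 and 1.402 for Anxa4. Against KRM they were -2.154 for Emr1, -1.964 for Cx3cr1, -4.304 for Mmp13, -8.984 for Alox15, -3.493 for F13a1, -2.175 for St3gal6, -7.965 for Scnn1a, 2.457 for Irf4, 3.707 for Adam23, 3.996 for Il1r2, 2.581 for Mmp12, 3.009 for Tbc1d4 and 2.803 for Flt3. For Alox15 these sizes depend on the prior count, since RAS 2 to 4 held 0 to 0.325 CPM. With all libraries in the edgeR fit none of these differences passed. With only KRM RAS 1 left out, and RAS 1 and Sham 3 kept, 1097 genes were called against KRM.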

How the results depend on the processing

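With all 7 libraries the count of genes at an adjusted p under 0.05 was 0 in the edgeR fits with other scalings, filters or a robust spread and in limma on the log2 table, 5 in 1 fit over 6 groups, 188 in DESeq2 and 2543 in limma-voom with sample weights, which gave Sham 3 a weight of 0.1745. It ran from 0 to 39 with 1 library left out (39 without RAS 1) and was 441 without RAS 1 and Sham 3. From those 441 the count went to 676 with no filter, 1796 in DESeq2, 3257 in limma-voom, 201 on the log2 table, 1052 in 1 fit over 6 groups and 75 with RAS 3 and RAS 4 averaged, and from 0 to 2817 with 1 library left out (0 without Sham 1 or Sham 2, 2817 without RAS 2); it stayed between 395 and 554 under the other scalings, filter and spread. The cause was not tested. Differences in response numbered 0 with all libraries. Against CD11clo macrophages they numbered 15 in DESeq2, 94 without RAS 1 and Sham 3, and 0 with any 1 CD11chi library left out. Against KRM they numbered 1 with no filter, 1221 in DESeq2, 16 in 1 fit over 6 groups and 113 without RAS 1 and Sham 3. They numbered 1097 without KRM RAS 1 alone, 1054 without all 3 of these libraries, and 0 to 58 with 1 CD11chi library left out. The distance between groups kept its sign, from 0.0092 to 0.4765, with no exact p under 0.05. Of the 67 named genes that passed without the 2 libraries, 66 passed in DESeq2, 53 in 1 fit over 6 groups, 64 with median-of-ratios factors and 65 with total library size, and 34 of 66 on the log2 table; 17 passed without RAS 3, 27 without RAS 4, 26 with RAS 3 and RAS 4 averaged and 0 without Sham 1 or Sham 2. Directions turned for 3 named genes that passed in neither fit: with 1 library left out Ccl2 ran from -0.184 to 0.919, Tnf from -0.994 to 0.449 and Spp1 from -0.623 to 3.383 with all 7, and Ccl2 from -0.311 to 1.325 and Tnf from -1.462 to 0.734 without the 2; Ccl2 was at -0.025 on the log2 table without the 2.

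Replicate numbers were not taken to pair the libraries, since nothing in the labels ties them to a mouse and not every same-numbered pair deviated together. Deviations of same-numbered RAS and Sham libraries correlated by -0.074, -0.303 and -0.09, and those between populations by 0.024 to 0.714, with 11 of 13 pairs above 0.1 and the own number giving the highest correlation in 9 of 13, which hints at a link for some numbers. With the number as a block 0 genes passed with all 7 libraries and 0 differences in response passed, and without RAS 1 and Sham 3 the block gave 11 differences against CD11clo macrophages and 382 against KRM. Of the 94 and 113 differences called without the block, 8 and 61 were also called with it, all with the same sign; among the named ones these were Hpgd against CD11clo macrophages and 9 of 13 against KRM, all but Cx3cr1, Emr1, St3gal6 and Tbc1d4. No blocked fit of RAS against Sham was possible without the 2 libraries, since the groups then share only 1 number.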

Other observations

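Immunoglobulin segments summed to 967.8, 2087 and 2045 CPM in Sham 1 to 3 and to 3133, 5434, 946.3 and 1023 CPM in RAS 1 to 4, so that RAS 3 and RAS 4 lay within or below the Sham range and RAS 1 and RAS 2 above it. Distal nephron genes summed to 8.233 and 16.81 CPM in Sham 1 and 2, 2012 CPM in Sham 3 and 77.54 to 246.8 CPM in RAS. Genes listed for plasmacytoid dendritic cells summed to 1528 CPM in Sham 3 and to 187.8 to 239.4 CPM in the other 6 libraries, but the list holds Klk1, a kallikrein also made by the renal tubule, at 1370 CPM in Sham 3 and 0.098 to 62.8 CPM elsewhere. Without Klk1 the sum was 156.5 CPM in Sham 3 and 147.2 to 238.3 CPM in the others. In the 250 bases before the start, the AP-1 letters were in 6.74% of the promoters of genes that rose and 8.21% of those of genes that fell without RAS 1 and Sham 3, against 3.25% of the promoters of all genes tested, with some genes holding more than 1 promoter. These were 13 of 193 and 16 of 195 promoters, for 1 of several motifs searched, and no test was run. PU.1 letters were in 5.7% and 2.05%, against 2.69%. The hypoxia response core was in 19.17% and 14.87%, against 21.34%.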
